A study of Arabidopsis thaliana with 6 samples.

Results

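The genes described here are the Arabidopsis gene models that lie less than 2 kb from a transposable element gene (TE gene). TE genes were recognised by words in the array's own gene descriptions (transposon, retroelement, or the name of a family such as copia or Mutator), and 2465 of the 30361 models measured carried such words. A TE-near gene was any other model that is not described as a pseudogene and whose start-to-end span lies under 2000 bases from the span of a TE gene on the same chromosome; 3 loci were left out by name, 1 of which lay inside this distance. This gave 1234 TE-near genes, 4.06% of all models. Apart from the 3 loci left out by name, they were chosen by position and description, with no measured value. A further 25303 genes on chromosomes 1 to 5 at least 2 kb from any TE gene served for comparison and are called TE-distant genes below.

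Expression was measured in young leaves of 3 genotypes, with 2 NimbleGen arrays each: the mutant kyp, the mutant cmt3 and wild type Col-0. The plants of all groups grew for 4 weeks on soil in long days and received no treatment. The labels name no allele and do not say whether a mutant is 1 line or several. They do not say either whether the 2 arrays of a genotype come from separate plants, so every p-value rests on a spread between arrays that may be technical only. In whole leaf tissue, fewer cells that express a gene and less RNA per cell cannot be told apart.

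In plants, transposable elements are kept silent by repressive chromatin. KYP (SUVH4) is a histone methyltransferase that methylates lysine 9 of histone H3, and CMT3 is a DNA methyltransferase that methylates cytosines in the CHG context (H is any base but G). Each mark recruits the enzyme that places the other, so that both marks are maintained together over elements. Repressive marks can reach beyond the end of an element, and some genes next to elements are known to carry them. A comparison of the mutants with wild type therefore shows which genes beside elements change when either enzyme is mutated.

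The arrays were alike as a whole. Median log2 intensities lay between 9.89 and 9.96, and Pearson's r between any 2 arrays was 0.968 to 0.988 over all models and 0.955 to 0.983 over the TE-near genes. CMT3 had log2 intensities of 10.94 and 10.97 in cmt3, against 12.61 and 12.59 in wild type, a 3.13-fold lower mean (limma, adjusted p = 0.0159), and 12.79 and 12.70 in kyp. The KYP transcript was at 10.04 and 9.91 in kyp, against 10.24 and 10.19 in wild type, a log2 difference of -0.24 ± 0.10 (SE, adjusted p = 0.515); a lesion that leaves the transcript in place would not show here. All 8 leaf markers stood near the top of the scale in every genotype (15.84 to 15.98). The medians of the root, flower and seed marker lists lay between 5.49 and 6.50, but single markers stood higher. The highest flower and pollen value was 9.53 in kyp, 8.97 in cmt3 and 9.32 in wild type. The highest seed value was 8.18, 6.84 and 7.77, and the highest root value 7.19, 7.42 and 7.19, in the same order. No marker was called in any comparison. The image names carry 2 numbers, taken here to be slides, an assumption that no label settles: kyp replicate 1 shares 1 number with the wild type pair, and kyp replicate 2 the other with the cmt3 pair. On that reading kyp shares a slide with wild type and the other slide with cmt3, while cmt3 and wild type share none. For cmt3 against wild type the slide and the genotype then cannot be told apart except through kyp.

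The TE-near genes were a mixed group. The median distance was 910 bases, 13 genes overlapped their TE gene, and 929 TE genes were the nearest element of at least 1 of them. Their nearest TE gene was copia-like for 348, Mutator-like for 239, a LINE for 236, gypsy-like for 227, CACTA-like for 97, hAT-like for 58 and of another kind for 29. Copia and gypsy elements are retrotransposons with long terminal repeats, LINEs are retrotransposons without them, and Mutator, CACTA and hAT elements are DNA transposons. The descriptions give no function for 785 of the 1234. In the later RefSeq annotation (TAIR10.1) 881 of them (71.4%) are protein coding and 339 (27.5%) are pseudogenes, against 97.1% and 1.98% of the TE-distant genes and 0.162% and 99.8% of the TE genes. Part of what the array's annotation counts as genes beside elements is therefore classed today as pseudogene, as the elements themselves are.

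TE-near genes gave lower signals than genes farther away, in every genotype. Their median log2 intensity was 7.03 and 6.92 on the kyp arrays, 7.08 and 7.08 on the cmt3 arrays and 6.89 and 6.98 on the wild type arrays. TE-distant genes had medians of 10.80 to 10.83 over the 6 arrays, and TE genes of 5.61 to 5.79. Of the TE-near genes 39.5% lay in the lowest 25% of intensities (mean of all 6 arrays), against 18.9% of TE-distant genes and 64.7% of TE genes. In wild type the median was 6.76 for 299 genes at 1 to under 500 bases, 6.46 for 361 genes at 500 to under 1000 bases and 7.11 for 561 genes at 1000 to under 2000 bases. Beyond the limit it was 7.72 at 2000 to under 5000 bases (1126 genes), 9.53 at 5000 to under 10000 bases (1413 genes) and 10.97 at 10000 bases and over (22764 genes). The 13 overlapping genes were an exception, with a wild type median of 10.99. These are medians over many probe sets, and the intensity of a probe set depends on its probes as well as on the transcript.

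**Figure D1:**
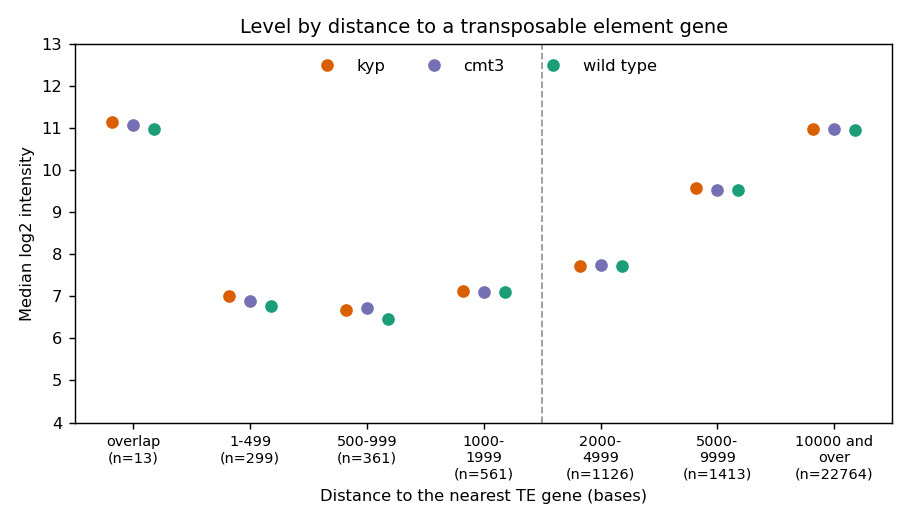
Median log2 intensity of gene models by distance to the nearest TE gene (bases), 1 point for each genotype (mean of its 2 arrays per gene, then the median over the n genes given below each class); the dashed line marks the 2 kb limit. The 3 genotypes lie close together in every class, and the wild type median is lowest at 500 to under 1000 bases (6.46) and reaches 10.97 at 10000 bases and over.

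Taken over all 1234 genes, the change in either mutant was close to 0. The median log2 change was -0.01 in kyp and 0.02 in cmt3, beside 0.00 and 0.04 for TE-distant genes and 0.08 and 0.07 for TE genes. Set against the TE-distant genes of the same array, the TE-near median lay at -3.77 and -3.91 in kyp, -3.75 and -3.75 in cmt3 and -3.94 and -3.83 in wild type. The kyp arrays overlapped those of wild type. Both cmt3 arrays lay above both wild type arrays, and the pooled SD between arrays of 1 genotype was 0.071. The median change per gene in cmt3 went the other way, with 0.02 for TE-near against 0.04 for TE-distant genes. No shift of the whole group is therefore read from either measure. The cmt3 pair also carries 1 image number and the wild type pair the other. The 2 arrays of a genotype differed more for TE-near genes: the median absolute difference was 0.28 in kyp, 0.27 in cmt3 and 0.28 in wild type, against 0.17, 0.19 and 0.15 for TE-distant genes.

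A small number of single genes changed strongly. In cmt3 18 TE-near genes rose and 4 fell at an adjusted p under 0.05, which is 1.46% and 0.324% of the 1234, where 0.56% and 0.181% of all models were called in these directions. Among TE-distant genes 46 rose and 43 fell (0.182% and 0.170%), and among TE genes 83 rose and 4 fell (3.37% and 0.162%). In kyp 5 TE-near genes rose and 1 fell (0.405% and 0.081%), where 0.0988% and 0.00659% of all models were called. The 18 genes that rose in cmt3 did so by a median of 7.43-fold (range 2.27 to 150), and the 5 in kyp by a median of 13.6-fold (4.18 to 125). At an unadjusted p under 0.05 stood 244 TE-near genes in cmt3 (19.8%), below the 23% of all models and the 23.4% of TE-distant genes. In kyp 157 did (12.7%), where 10.2% of all models and 9.48% of TE-distant genes did.

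The counts depend on how the spread between arrays is estimated. With a spread that follows intensity, 53 TE-near genes rose in cmt3 (4.29%), where 3.99% of all models did, so that the share was then close to that of all models; 34 fell (2.76%), where 3.49% of all models did, which turns the order seen without the trend. By size alone, without a test, 24 TE-near genes were at least 4-fold higher in cmt3 with no overlap of the arrays (1.94%; 0.912% of all models) and 13 at least 4-fold lower (1.05%; 0.978% of all models). In kyp 9 were at least 4-fold higher (0.441% of all models) and 4 at least 4-fold lower (0.175% of all models). With the slide as a block no TE-near gene was called in either mutant, and neither was any of the 30361 models. Without 1 array 2 to 5 TE-near genes rose in cmt3, where 18 to 77 of all models did, and in kyp no model was called.

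The share called higher in cmt3 was largest close to the elements. It was 1.67% at 1 to under 500 bases (5 genes), 1.66% at 500 to under 1000 bases (6 genes) and 1.07% at 1000 to under 2000 bases (6 genes), and 1 of the 13 overlapping genes rose too. Farther away it was 0.444% at 2000 to under 5000 bases, 0.212% at 5000 to under 10000 bases and 0.167% at 10000 bases and over. Of all models 0.56% rose in cmt3. In kyp the classes inside the limit held 2, 1 and 2 risen genes (0.669%, 0.277% and 0.357%), where 0.0988% of all models rose. None of the overlapping genes rose in kyp. The genes that fell in cmt3 numbered 0 at 1 to under 500 bases, 1 at 500 to under 1000 bases (0.277%) and 3 at 1000 to under 2000 bases (0.535%). Of all models 0.181% fell in cmt3. These shares were not tested against each other. Just inside the limit, AT5G36840, AT5G17730 and AT4G18395 (1997 bases each) changed in cmt3 by 0.32, -1.12 and -0.01 on the log2 scale, and just outside it AT1G08740 (2002 bases), AT4G03820 and AT2G30650 (2004 bases each) by 1.03, -0.05 and -0.51.

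**Figure D2:**
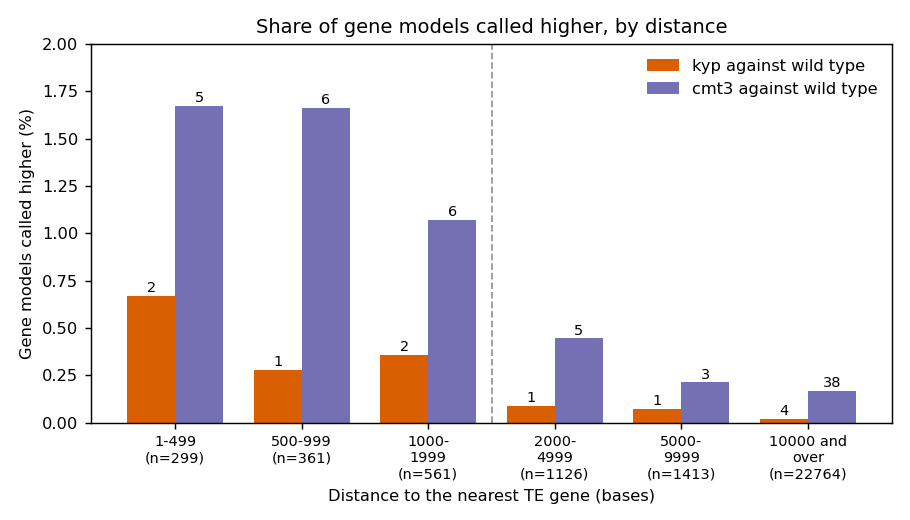
Share of gene models called higher (%; limma, adjusted p under 0.05 over all models) in kyp and in cmt3 against wild type, by distance to the nearest TE gene in bases; the number over each bar is the count, n is the class size, and the dashed line marks the 2 kb limit. For cmt3 the bars stand at 1.67%, 1.66% and 1.07% inside the limit and at 0.167% at 10000 bases and over; the class of 13 overlapping genes is not drawn.

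The dim signal of the TE-near genes moved with these counts, and so the shares were also compared within 4 classes of equal size, made by ranking all models by their mean intensity. In the second lowest class 13 of 360 TE-near genes rose in cmt3 (3.61%), against 19 of 6012 TE-distant genes (0.316%) and 62 of 794 TE genes (7.81%). In the second highest class 3 of 206 TE-near genes rose (1.46%), against 20 of 7214 TE-distant genes (0.277%). In the lowest class 2 of 487 rose (0.411%), against 6 of 4784 (0.125%), and in the highest none of 181 did, against 1 of 7293. Of all models 1.44% rose in the second lowest class and 0.501% in the second highest. In the lowest class 0.29% of all models rose, and in the highest 0.0132%. In each of the 3 lower classes the TE-near share was above that of TE-distant genes. These differences, and the part that intensity has in the counts, were not tested. All 5 genes that rose in kyp lay in the second lowest class. The mean includes the mutant arrays, so a rise in a mutant itself moves a gene to a higher class. AT2G16676, for example, had 4.93 and 4.86 in wild type and stood in the second lowest class. The classes are therefore not classes of like wild type intensity, and part of these shares follows from the rises themselves.

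**Figure D3:**
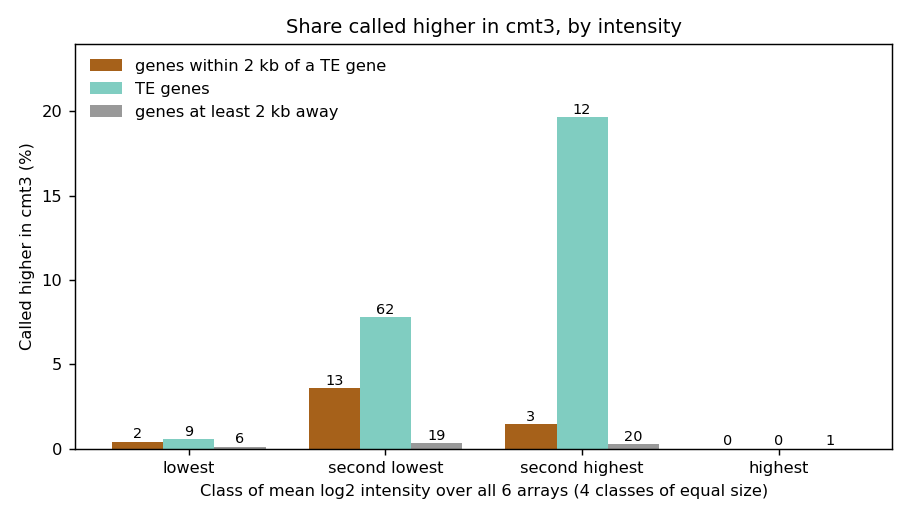
Share of gene models called higher in cmt3 against wild type (%), for TE-near genes, TE genes and TE-distant genes, in 4 classes of equal size by mean log2 intensity over all 6 arrays; the number over each bar is the count. In the second lowest class the shares are 3.61% for TE-near genes, 7.81% for TE genes and 0.316% for TE-distant genes.

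The RefSeq class also moved with the counts. Of 339 TE-near genes that RefSeq calls pseudogenes, 11 rose in cmt3 (3.24%) and 1 fell, and 2 rose in kyp. Of 502 TE-distant genes of that class, 2 rose in cmt3 (0.398%) and none in kyp. Among protein coding genes 6 of 881 TE-near genes rose in cmt3 (0.681%) and 3 fell, against 44 of 24580 TE-distant genes (0.179%) that rose and 43 that fell. In kyp 3 of the 881 rose and 1 fell, against 6 of the 24580 that rose and none that fell. Of all models 0.56% rose and 0.181% fell in cmt3, and 0.0988% rose and 0.00659% fell in kyp. The last risen gene in cmt3, AT3G44040, has no RefSeq match.

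By family of the neighbouring element, 8 genes next to a Mutator-like gene rose in cmt3 (3.35%), 6 next to a LINE (2.54%) and 4 next to a gypsy-like gene (1.76%), where 0.56% of all models did. None of the 348 next to a copia-like gene rose, nor of the 97 next to a CACTA-like or the 58 next to a hAT-like gene; at the share of all models few calls or none would fall in groups of these sizes, and the families were not tested against each other. In kyp the 5 risen genes had a LINE (3) or a gypsy-like gene (2) beside them. By chromosome 8 of the 18 lay on chromosome 2 (3.21% of its TE-near genes), 6 on chromosome 5 (2.31%) and 4 on chromosome 3 (1.40%), where 0.56% of all models rose. None lay on chromosomes 1 and 4, which hold 263 and 177 TE-near genes. At the share of all models few calls would fall in groups of these sizes, so these zeros say little. The chromosomes were not tested against each other. Each of these 18 genes had 1 TE gene within 2 kb, as did 1144 of the 1234.

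Of the 6 genes beside LINEs that rose in cmt3, 5 had a LINE that rose in cmt3 too. AT2G16676, an unknown protein on chromosome 2 (7237953 to 7238609, gene models of Release 6), had log2 intensities of 11.69 and 12.03 in kyp and of 11.87 and 11.75 in cmt3, against 4.93 and 4.86 in wild type. All 4 mutant arrays thus stood far above both wild type arrays. The rise was 125-fold in kyp (log2 change 6.96 ± 0.15, SE; adjusted p = 0.00381) and 120-fold in cmt3 (6.91 ± 0.15; adjusted p = 0.00237). The LINE AT2G16680, 765 bases away, was at 8.86 and 9.18 in kyp and at 8.92 and 8.58 in cmt3, against 5.03 and 4.24 in wild type. It rose in cmt3 (log2 change 4.12, adjusted p = 0.0283), and its change in kyp was 4.39 (adjusted p = 0.061). A second gene beside this LINE, AT2G16690 (595 bases), named after its values were seen, had changes of 1.56 in kyp (adjusted p = 0.387) and 2.48 in cmt3 (adjusted p = 0.0927).

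AT2G13450, another unknown protein of chromosome 2 (5605821 to 5607005), had 10.75 and 10.86 in kyp and 11.00 and 11.18 in cmt3, against 5.74 and 5.96 in wild type. It rose 31.0-fold in kyp (log2 change 4.95 ± 0.14, adjusted p = 0.00602) and 37.8-fold in cmt3 (5.24 ± 0.14, adjusted p = 0.00256). The LINE AT2G13460, 383 bases away, had 10.20 and 10.49 in kyp and 10.67 and 10.82 in cmt3, against 5.21 and 6.13 in wild type. Gene and LINE therefore reached like changes, 4.95 and 4.68 in kyp and 5.24 and 5.07 in cmt3, with the LINE called in cmt3 (adjusted p = 0.023) and at an adjusted p of 0.061 in kyp. AT2G41590 (chromosome 2, 17350438 to 17352083; unknown protein) had 9.65 and 10.13 in kyp and 11.39 and 11.53 in cmt3, against 5.97 and 6.28 in wild type. The groups did not overlap, and the gene rose 13.6-fold in kyp (adjusted p = 0.0349) and 40.2-fold in cmt3 (adjusted p = 0.00791); its LINE, AT2G41580 at 272 bases, changed by 3.18 in kyp (adjusted p = 0.0815) and rose by 5.03 in cmt3 (adjusted p = 0.0159). For this gene kyp minus cmt3 was -1.57 ± 0.22 (adjusted p = 0.27).

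The other 3 genes beside LINEs were called in cmt3 and not in kyp. AT2G15520, which RefSeq calls a pseudogene, had 4.96 and 4.47 in kyp and 7.75 and 7.84 in cmt3, against 4.78 and 4.52 in wild type. The kyp arrays lay among the wild type values, and the gene rose 8.83-fold in cmt3 (log2 change 3.14 ± 0.21, adjusted p = 0.0227) with a kyp change of 0.06 ± 0.21 (adjusted p = 0.944). Kyp minus cmt3 was -3.08 ± 0.21, with an adjusted p of 0.0982 that missed the threshold. Its LINE AT2G15510, 108 bases away, had 6.49 and 6.54 in kyp and 10.53 and 10.79 in cmt3, against 4.95 and 4.71 in wild type, and here kyp and cmt3 did differ (-4.15, adjusted p = 0.03). AT3G29080, 64 bases from the LINE AT3G29078, had 7.26 and 6.84 in kyp and 9.20 and 9.13 in cmt3, against 5.89 and 5.06 in wild type. It rose 12.9-fold in cmt3 (adjusted p = 0.0383), and its kyp arrays lay between the other genotypes (1.57, adjusted p = 0.342). That LINE had 9.93 and 9.57 in kyp and 12.64 and 12.85 in cmt3, against 4.96 and 5.84 in wild type. AT3G44040 had 11.17 and 10.85 in kyp and 10.86 and 11.13 in cmt3, against 8.71 and 9.09 in wild type, a rise of 4.28-fold in cmt3 (adjusted p = 0.0462) beside a change of 2.11 in kyp (adjusted p = 0.0976). Its LINE AT3G44035, at 1725 bases, ran otherwise, with 11.47 and 11.58 in kyp and 7.43 and 7.66 in cmt3, against 5.73 and 5.16 in wild type. The gene stood about equally high in both mutants (kyp minus cmt3 0.01, adjusted p = 0.985), whereas the element stood higher in kyp (3.98, adjusted p = 0.0767).

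Beside Mutator-like genes the pattern was another one: the 8 genes rose in cmt3 and the annotated transposase gene next to each stayed dim. The 8 Mutator-like genes had log2 intensities of 4.26 to 6.15 on the cmt3 arrays and changes between -0.55 and 0.81, and none was called. AT5G28235, annotated as a cysteine-type peptidase (chromosome 5, 10201275 to 10203339), had 8.87 and 8.46 in kyp and 12.64 and 12.77 in cmt3, against 5.27 and 5.69 in wild type. The 3 genotypes did not overlap, and the rise of 150-fold in cmt3 (log2 change 7.23 ± 0.22, adjusted p = 0.00388) was the largest among called TE-near genes. The kyp change was 3.19 ± 0.22 (adjusted p = 0.0597), and kyp minus cmt3 was -4.04 ± 0.22 (adjusted p = 0.068). An end of this gene overlaps the Mutator-like gene AT5G28232, which had 4.48 and 4.28 in kyp and 4.35 and 4.53 in cmt3, against 4.37 and 4.55 in wild type.

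A second cysteine-type peptidase, AT5G45570 (chromosome 5, 18489528 to 18492801), had 7.03 and 6.07 in kyp and 10.34 and 10.49 in cmt3, against 5.41 and 5.34 in wild type. It rose 32.9-fold in cmt3 (log2 change 5.04 ± 0.34, adjusted p = 0.023), and its kyp arrays lay between the other genotypes (1.18 ± 0.34, adjusted p = 0.416). These were the only called genes among the 28 TE-near genes described as peptidases. Some plant Mutator-like elements are known to carry a cysteine peptidase domain; whether these loci belong to such elements was not tested. The other 6 genes of this kind are unknown proteins that RefSeq calls pseudogenes. AT2G15800, 80 bases from its element, had 9.79 and 9.64 in kyp and 11.94 and 11.47 in cmt3, against 8.68 and 8.40 in wild type, a rise of 8.99-fold in cmt3 (adjusted p = 0.0225) with a change of 1.18 in kyp (adjusted p = 0.286). AT2G04970 had 6.98 and 7.33 in kyp and 8.45 and 8.21 in cmt3, against 5.34 and 5.29 in wild type, and rose 8.06-fold in cmt3 (adjusted p = 0.0159; kyp change 1.84, adjusted p = 0.0815). In both genes the kyp arrays stood between wild type and cmt3, without overlap. AT2G07260, AT5G34895, AT2G14140 and AT3G30450 rose in cmt3 by 6.84-fold, 5.50-fold, 3.85-fold and 3.22-fold, and their kyp changes were 1.49, 0.79, 1.10 and 0.39 on the log2 scale, none of them called.

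Beside gypsy-like genes 4 genes rose in cmt3, by 2.27-fold to 6.60-fold, and 3 of them had wild type log2 intensities above 8. AT5G31787, an unknown protein that RefSeq calls a pseudogene (chromosome 5, 11730343 to 11730871), had 10.43 and 10.28 in kyp and 10.48 and 10.31 in cmt3, against 8.36 and 8.16 in wild type. It rose 4.28-fold in kyp (adjusted p = 0.0443) and 4.41-fold in cmt3 (adjusted p = 0.0205). AT5G32312 (chromosome 5, 11962061 to 11962588) had 10.36 and 10.48 in kyp and 10.35 and 10.17 in cmt3, against 8.32 and 8.39 in wild type, and rose 4.18-fold in kyp (adjusted p = 0.0316) and 3.75-fold in cmt3 (adjusted p = 0.02). In both genes the mutants lay close together and clear of wild type. AT5G32161 had 11.86 and 11.84 in kyp and 11.82 and 11.76 in cmt3, against 10.64 and 10.57 in wild type, and rose 2.27-fold in cmt3 (adjusted p = 0.0283; kyp change 1.24, adjusted p = 0.061). The elements next to these 3 genes, all of the Athila group of gypsy elements, changed by 0.05, 0.25 and 0.17 in kyp and by 0.27, 0.71 and -0.38 in cmt3, none called. The remaining gene, AT3G23720, rose 6.60-fold in cmt3 (7.13 and 7.31 in kyp and 8.75 and 8.72 in cmt3, against 6.15 and 5.88 in wild type; adjusted p = 0.0131), and its element AT3G23725 changed by 3.06 (adjusted p = 0.0821).

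**Figure D4:**
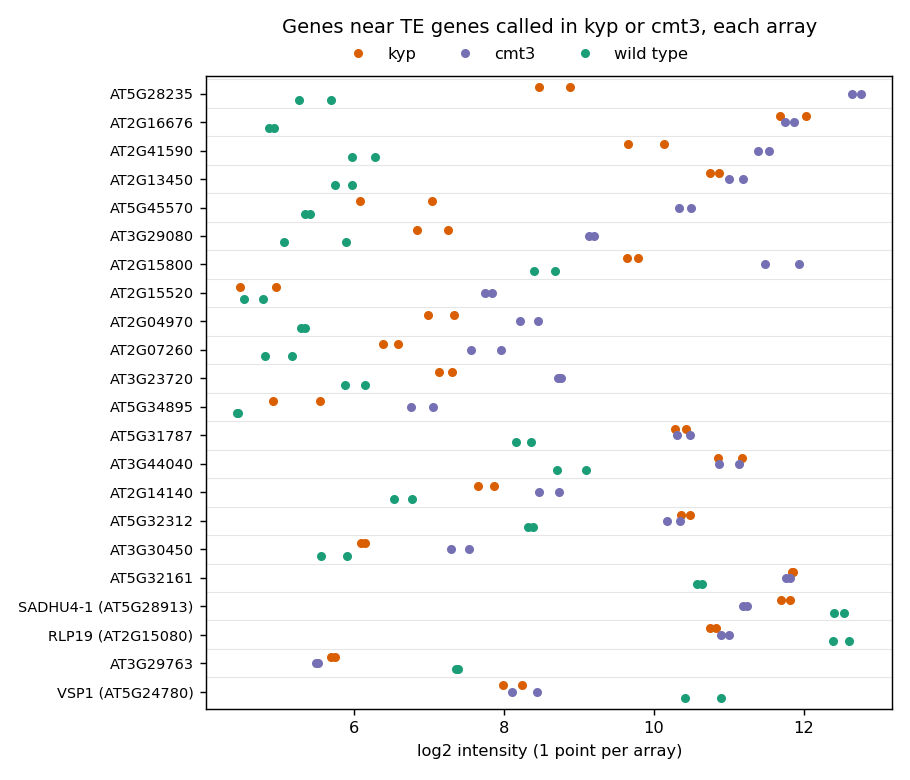
Log2 intensity on each of the 6 arrays (1 point per array) for the 22 TE-near genes called in kyp or cmt3 against wild type, ordered by the change in cmt3 from the largest rise (top) to the largest fall (bottom); within a row kyp is drawn above cmt3 and wild type below. The top row, AT5G28235, has kyp between wild type and cmt3, while in AT2G16676 and AT2G13450 both mutants stand together far above wild type.

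Among the genes that fell, 2 have known products. VSP1 (AT5G24780), a vegetative storage protein with acid phosphatase activity whose expression is induced by jasmonate, had 7.98 and 8.24 in kyp and 8.45 and 8.11 in cmt3, against 10.90 and 10.42 in wild type. It fell 5.21-fold in cmt3 (log2 change -2.38 ± 0.23, adjusted p = 0.0456), and its kyp change was -2.55 ± 0.23 (adjusted p = 0.0815). The CACTA-like gene 1158 bases away was dim on all arrays and changed by 0.03 in cmt3. RLP19 (AT2G15080), a receptor-like protein, had 10.74 and 10.83 in kyp and 10.89 and 11.00 in cmt3, against 12.60 and 12.39 in wild type. It fell 2.93-fold in cmt3 (-1.55 ± 0.12, adjusted p = 0.0283) and was the only called gene of the 50 TE-near genes described as kinases; its kyp change was -1.71 ± 0.12 (adjusted p = 0.0609). The CACTA-like gene AT2G15070, 1306 bases away, went the other way, with 8.86 and 8.83 in kyp and 9.16 and 8.77 in cmt3, against 5.91 and 6.06 in wild type, and rose in kyp (2.86, adjusted p = 0.0349) and in cmt3 (2.98, adjusted p = 0.0159).

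AT3G29763, an unknown protein, was the only TE-near gene that fell in kyp. It had 5.70 and 5.74 in kyp and 5.52 and 5.49 in cmt3, against 7.38 and 7.35 in wild type, and fell 3.14-fold in kyp (adjusted p = 0.0294) and 3.64-fold in cmt3 (adjusted p = 0.0109). SADHU4-1 (AT5G28913) is listed as an expressed protein in the array's annotation and classed as a pseudogene in RefSeq. Its symbol names the sadhu family of non-coding retrotransposons. The gene had 11.81 and 11.69 in kyp and 11.19 and 11.25 in cmt3, against 12.54 and 12.40 in wild type. It fell 2.39-fold in cmt3 (adjusted p = 0.0358), with kyp between the others (-0.72, adjusted p = 0.225).

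The genes were also set beside the change of their nearest element. In cmt3 48 of the 83 TE genes that rose were the nearest element of a TE-near gene, 61 genes in all. Of these 61 genes 5 rose and 1 fell (8.20% and 1.64%), where 0.56% and 0.181% of all models did. The median log2 change of the 61 genes was 0.13. Of the other 1173 genes 13 rose and 3 fell (1.11% and 0.256%), with a median of 0.01. At an unadjusted p under 0.05 stood 27 of the 61 genes (44.3%) and 18.5% of the other 1173, and 13.1% and 1.36% were at least 4-fold higher without overlap. In kyp 11 genes lay next to a risen TE gene; none of them was called, and 5 (45.5%) stood at an unadjusted p under 0.05, against 12.4% of the others. Next to a TE gene at least 4-fold higher in kyp without overlap lay 55 genes. Of these, 3 rose in kyp (5.45%), against 2 of the other 1179 (0.17%) and 0.0988% of all models. The same split in cmt3 gave 100 genes, of which 7 rose in cmt3 (7%). Of the other 1134, 11 rose (0.97%), and of all models 0.56% did. None of these differences in share was tested. Most genes beside a risen element were thus not called, which does not show that they did not change. Over all 1234 pairs the log2 changes of gene and element correlated across genes with Pearson's r of 0.13 in kyp and 0.14 in cmt3 and with Spearman's rho of 0.04 and 0.05, so that by rank the relation was close to 0; the points share arrays, and some share an element. A case of opposite movement, named after its values were seen, was AT5G19100, an unknown protein 634 bases from the copia-like gene AT5G19097. The gene had 7.37 and 7.24 in kyp and 6.68 and 6.76 in cmt3, against 10.88 and 9.56 in wild type (-2.91, adjusted p = 0.245, and -3.50, adjusted p = 0.0745). Its element had 13.17 and 12.66 in kyp and 13.07 and 13.28 in cmt3, against 6.87 and 6.04 in wild type, and rose in both mutants (adjusted p = 0.0294 and 0.0132).

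**Figure D5:**
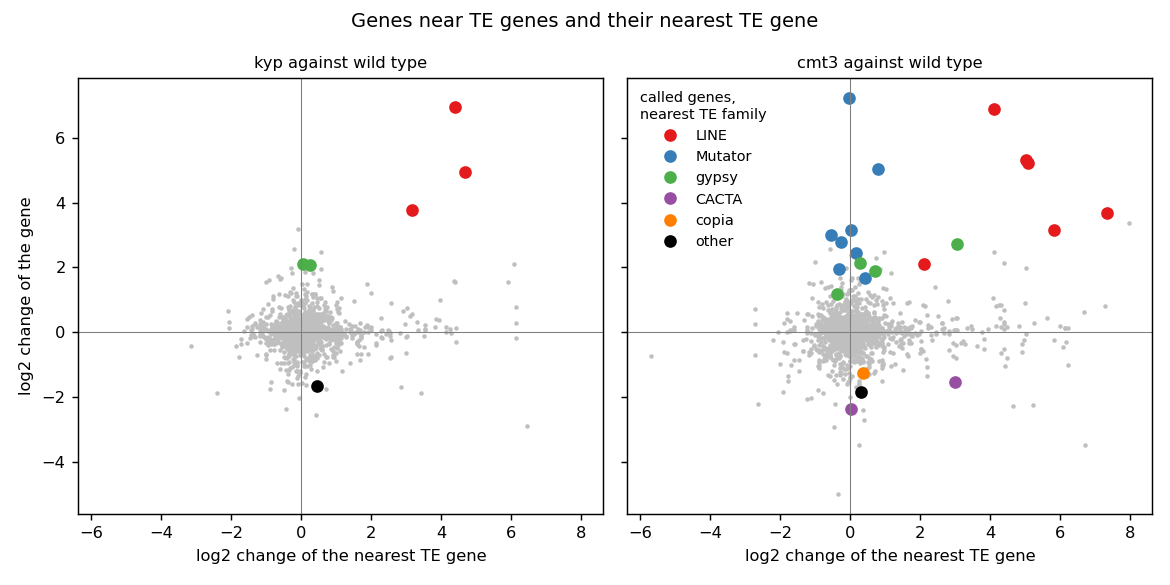
Log2 change of each of the 1234 TE-near genes (vertical axis) against that of its nearest TE gene (horizontal axis), for kyp and for cmt3 against wild type; grey dots are genes that were not called and coloured points are called genes, by the family of the nearest TE gene. In cmt3 the 6 called genes beside LINEs lie to the right with their element, while the 8 beside Mutator-like genes lie above a change of the element between -0.55 and 0.81.

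Kyp and cmt3 were also compared with each other. No TE-near gene was called higher or lower, where 0.00988% and 0.0198% of all models were, and 135 TE-near genes stood at an unadjusted p under 0.05, where 12.5% of all models did. By size alone 2 were at least 4-fold higher in kyp than in cmt3 without overlap (0.412% of all models) and 4 at least 4-fold lower (0.296% of all models). The smallest p belonged to AT5G28235, AT2G15520, AT5G45570, AT3G23720, AT2G15800 and AT5G28420. The first 5 were lower in kyp than in cmt3, with log2 differences (kyp minus cmt3) of -4.04, -3.08, -3.86, -1.52 and -1.99. AT5G28420, an unknown protein beside a copia-like gene, was higher in kyp, with 7.11 and 6.85 in kyp against 5.82 and 5.93 in cmt3 (1.10 ± 0.13, adjusted p = 0.229), and 6.94 and 6.85 in wild type. None of these 6 differences passed the threshold, which does not show that kyp and cmt3 act alike on them.

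Among 22 loci listed as linked to repeats or imprinted, 3 were TE-near genes and none was called. RPP4 (AT4G16860), an immune receptor of the NLR class that recognises downy mildew, lies 69 bases from the copia-like gene AT4G16870. It had 14.70 and 14.49 in kyp and 14.33 and 14.24 in cmt3, against 14.93 and 15.09 in wild type, changes of -0.42 (adjusted p = 0.429) and -0.73 (adjusted p = 0.0943). Both mutants lay below wild type without overlap. The element fell in cmt3, with 9.83 and 9.54 in cmt3 against 15.31 and 15.41 in wild type (adjusted p = 0.0121), and had 11.86 and 12.59 in kyp (adjusted p = 0.0815). RPP7 (AT1G58602), a further NLR gene for downy mildew resistance, whose gene model spans the copia-like gene AT1G58561, changed by -0.03 in kyp and -0.22 in cmt3, and in kyp the sign of this small change depended on the arrays used. EPF2, a secreted peptide that limits the number of stomata, had a hAT-like gene 1616 bases away and changed by -0.39 in kyp and -0.37 in cmt3 (adjusted p = 0.664 and 0.455); its cmt3 arrays overlapped those of wild type.

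Of the 449 TE-near genes with a described function, 2 rose in cmt3 (0.445%) and 2 fell (0.445%), where 0.56% and 0.181% of all models did, and none was called in kyp. Of 32 TE-near genes described as transcription factors or zinc fingers, 21 as transporters, 9 as defensin-like, 4 as heat shock and 1 as disease resistance proteins, none was called in kyp or cmt3; classes of this size hold less than 1 call at the share of all models, so these zeros say little. Of the 785 genes of unknown function 16 rose in cmt3 (2.04%). Several genes of known function differed by at least 4-fold without passing the test; the following were named after their values were seen. CYP82G1 (AT3G25180), a cytochrome P450 that makes volatile homoterpenes, had 13.07 and 12.03 in kyp and 10.47 and 7.41 in cmt3, against 14.39 and 13.49 in wild type (cmt3 change -5.00 ± 1.13, adjusted p = 0.12). PNC2, a carrier of adenine nucleotides into peroxisomes, had 13.52 and 12.86 in kyp and 12.28 and 10.37 in cmt3, against 14.35 and 14.17 in wild type (cmt3 change -2.93 ± 0.69, adjusted p = 0.125). TRX5, a thioredoxin, had 12.54 and 12.00 in kyp and 11.58 and 9.70 in cmt3, against 12.84 and 12.48 in wild type (cmt3 change -2.02 ± 0.68, adjusted p = 0.189). In each of these 3 genes cmt3 replicate 2 was the lowest of the 6 arrays and the 2 cmt3 arrays lay far apart. PPME1, a pectin methylesterase of pollen, was high on 1 array of each mutant, with 8.39 and 5.69 in kyp and 5.90 and 8.32 in cmt3, against 4.93 and 5.17 in wild type.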

How the data were processed

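RNA from young leaves was reverse transcribed with an oligo(dT) primer into double-stranded cDNA, labelled with Cy3 and hybridised in 1 colour to 6 NimbleGen arrays, per the labels' protocols. Because both cDNA strands were made, the strand of a transcript cannot be told from the values. The deposited values are intensities on a linear scale, 1 per gene model and array, which the authors normalized by RMA, per the labels; the software is not given in the sources used here. The same intensities stood in the series table (0 values differed). A deposited score beside each intensity, a standard error whose meaning is not stated, was not used. The files hold no background or detection values, so no gene was called absent; the number of arrays limits the precision.

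Intensities were log2-transformed and analysed in R 4.3.3 by limma 3.58.1 (lmFit, contrasts.fit, eBayes) in 1 fit of all 30361 models and 6 arrays, with 3 residual and 1.41 prior degrees of freedom. A call needed an adjusted p (Benjamini-Hochberg, all models) under 0.05. A second, descriptive rule took changes of at least 4-fold with no overlap of arrays. Errors beside log2 changes are limma's standard errors, and they are the same for every contrast of a gene.

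Each TE-near gene has 2 probes (950 genes) or 3 (284), and for 9 genes, none of them named, the probe set stands for several loci. Binding of a probe to related element copies was not tested. Coordinates are those of the files (gene models of Release 6). Symbols and gene classes were matched by locus to RefSeq (TAIR10.1), which held 1221 of the 1234. Sequences were not used here.

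Genes, lists and tests were chosen with earlier results of these data known. The rule for names took, for each mutant, up to 16 called genes that rose and 8 that fell, by size of change; for kyp against cmt3, with no call, the 6 with the smallest p; all listed repeat-linked or imprinted loci that were TE-near; and the 3 genes on either side of 2 kb. AT3G30450 and AT5G32161, with the smallest of the 18 rises in cmt3, were added after their values were seen. Alternatives were a block for replicate number or slide, quantile normalization, removal of the lowest 25% of intensities, an intensity trend, robust moderation, other thresholds, genes within 3 Mb of CMT3 and KYP left out, and each array left out.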

Additional observations from a re-analysis of the deposited data

How the results depend on the processing

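The counts of TE-near genes that rose and fell (5 and 1 in kyp, 18 and 4 in cmt3, 0 and 0 for kyp against cmt3) depended on the fit. A slide block (slides taken from image names; 2 residual degrees of freedom left) gave 0 and 0 in kyp and 0 and 0 in cmt3, and the 18 log2 changes in cmt3 then stood between 1.20 and 7.64; no other model was called either. The replicate numbers pair nothing in the labels, and deviations of same-numbered arrays correlated at -0.12 (kyp and wild type), 0.00 (cmt3 and wild type) and -0.04 (kyp and cmt3). A replicate block gave 0 and 0 in kyp, where no model was called. In cmt3 it gave 7 and 0 (0.567% and 0%, where 0.168% and 0.0593% of all models were called). An intensity trend gave 8 and 3 in kyp (0.648% and 0.243%, where 0.237% and 0.0428% of all models were called). It gave 53 and 34 in cmt3 (4.29% and 2.76%, where 3.99% and 3.49% of all models were called). For kyp against cmt3 it gave 1 lower (0.056% of all models). Without the lowest 25% of intensities 747 TE-near genes and 22770 models were left. Of the 747, 7 rose and 2 fell in kyp (0.937% and 0.268%, where 0.255% and 0.022% of the 22770 did). In cmt3 25 rose and 11 fell (3.35% and 1.47%, where 1.39% and 0.817% of the 22770 did). For kyp against cmt3 1 was lower in kyp (0.134%, where 0.0483% of the 22770 were). An adjusted p under 0.10 gave 9 and 3 in kyp, 37 and 21 in cmt3, and 2 lower for kyp against cmt3. The shares of all models at this threshold are not given here, so these counts cannot be read as above or below them. Within 1 kb 3 rose and 0 fell in kyp, where 0.0988% and 0.00659% of all models did. In cmt3 12 rose and 1 fell within 1 kb, where 0.56% and 0.181% of all models did. Among the 881 genes that RefSeq calls protein coding, an alternative chosen after seeing the data, 3 rose and 1 fell in kyp. These were 0.341% and 0.114%, where 0.0988% and 0.00659% of all models were called. In cmt3 6 of the 881 rose and 3 fell (0.681% and 0.341%), where 0.56% and 0.181% of all models did. Without 1 array, 0 rose and 0 fell in kyp whichever array was left out, and 2 to 5 rose and 0 to 1 fell in cmt3: 2 without cmt3 replicate 2, 3 without cmt3 replicate 1 or wild type replicate 1, 4 without wild type replicate 2, and 5 without either kyp array. A lone array is assumed there to vary like the other genotypes. The cmt3 calls of AT2G16676 and AT2G13450 held in 12 of 13 alternative fits, all but the slide block. Quantile normalization, robust moderation and leaving out genes near CMT3 and KYP kept all counts within 1.5 times, and so did probe sets of 1 locus, added after seeing the data. The median change of TE-near minus TE-distant genes ranged from -0.038 to 0.009 in kyp and from -0.025 to 0.019 in cmt3. The kyp change of AT1G58602 (-0.03) turned to 0.037 with the slide block, to 0.17 without wild type replicate 1 and to 0.037 without kyp replicate 2, and ranged from -0.22 to 0.17 without 1 array. Of the other values of named genes, 600 kept their sign and side of the threshold, 204 lost the call and 14 gained it. The causes were not tested.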

Other observations

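Some TE-near genes were at least 4-fold higher in a mutant without a call and lay beside elements of the same families as the called genes. They were named after their values were seen. AT2G05030, 616 bases from the gypsy-like gene AT2G05040, had 7.69 and 8.14 in kyp and 9.79 and 9.69 in cmt3, against 5.80 and 6.95 in wild type (log2 changes 1.54, adjusted p = 0.4, and 3.37, adjusted p = 0.0728). The element rose in both mutants, by 5.90 in kyp (adjusted p = 0.0122) and 7.95 in cmt3 (adjusted p = 0.00256), and its cmt3 change was larger than that of the gene. AT3G24680, which shares 1 base with the LINE AT3G24675, had 5.75 and 5.60 in kyp and 7.28 and 7.03 in cmt3, against 5.30 and 4.75 in wild type (cmt3 change 2.13, adjusted p = 0.0527), and that LINE rose by 4.38 in cmt3 (adjusted p = 0.0295). AT2G15815 lies on the other side of the Mutator-like gene AT2G15810 from AT2G15800, and had 5.77 and 7.20 in kyp and 8.15 and 7.84 in cmt3, against 5.71 and 5.48 in wild type (cmt3 change 2.40, adjusted p = 0.112). The element between these genes had 4.55 and 4.87 in kyp and 4.49 and 4.73 in cmt3, against 4.43 and 4.75 in wild type.

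Some genes had a higher mean in kyp than in cmt3, though none of these differences was called. AT1G78355, 232 bases from a Mutator-like gene, had 7.80 and 7.72 in kyp and 5.62 and 6.22 in cmt3, against 5.0 and 5.59 in wild type. Its kyp change was 2.47 (adjusted p = 0.142), its cmt3 change 0.63 (adjusted p = 0.292), and kyp minus cmt3 was 1.84 (adjusted p = 0.308). AT4G07485 had 9.82 and 8.83 in kyp and 9.01 and 8.87 in cmt3, against 6.49 and 7.05 in wild type, changes of 2.56 (adjusted p = 0.239) and 2.17 (adjusted p = 0.0987). Its kyp and cmt3 arrays overlapped, and kyp minus cmt3 was 0.38 (adjusted p = 0.716). The neighbouring element AT4G07490 changed by -0.21 in kyp and -0.99 in cmt3. GH3.1, an enzyme of the family that conjugates auxin, was lower in both mutants, with 5.62 and 5.61 in kyp and 5.22 and 4.41 in cmt3, against 6.18 and 7.47 in wild type (-1.21, adjusted p = 0.53, and -2.01, adjusted p = 0.138).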
